A study of Mus musculus with 16 samples.

Results

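B2m and 5 other genes that build and load MHC class I molecules were followed through the sperm RNA of mice fed a high-fat or a control diet. The 6 genes, B2m, H2-K1, H2-D1, Tap1, Tap2 and Tapbp, were picked by name from the 24062 gene rows of a read count table. No cut on their values was used, but earlier results of these data were known. Of the 6 genes, 5 passed the expression filter of the test, and Tap2 did not. RNA came from motile spermatozoa of 16 male mice, 8 on a high-fat diet (HFD) and 8 on a control diet (CD). Both groups began their diet at 3 weeks of age and kept it for 9 weeks, and the samples were described only by diet and as spermatozoa. Strain, genotype and site of sperm collection were not stated, and no allele or other agent was named for either group. The heavy chains are among the most variable genes between mouse strains, and how far the alleles of these mice differed from the reference genome was not tested.

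Class I molecules carry peptides from inside a cell to its surface, where cytotoxic T cells read them. Each molecule pairs a heavy chain, such as those encoded by H2-K1 and H2-D1, with the light chain beta-2 microglobulin, encoded by B2m, without which most heavy chains do not reach the surface. The transporter formed by Tap1 and Tap2 brings peptides into the endoplasmic reticulum, and tapasin, encoded by Tapbp, holds the empty molecule at the transporter and favours peptides that bind tightly. Most somatic cells carry class I molecules, while late male germ cells are known to carry little, and the cells lining the epididymis add RNA and protein to the fluid around maturing sperm.

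On GRCm38 with GENCODE M21, B2m lies on chromosome 2 (122147686 to 122153083, plus strand), and the other genes lie in the histocompatibility complex on chromosome 17. There, Tapbp spans 33915899 to 33929292, H2-K1 33996017 to 34000347, Tap1 34187553 to 34197225, Tap2 34203527 to 34216321 and H2-D1 35262730 to 35267499, all on the plus strand except H2-K1. All 6 are protein-coding. Exons of Tap1 overlap those of the immunoproteasome gene Psmb9 on the other strand, Tap2 overlaps 2 noncoding genes on the other strand, and Tapbp overlaps Zbtb22 on its own strand and Gm19412 on the other. The strand setting of the counting was not given, so reads of these partners cannot be told apart. The span of B2m overlaps Patl2, but their exons do not overlap. Of the 50-base words of each gene's principal transcript, 0% of those of B2m, 6.47% of Tap1, 8.79% of H2-K1, 12.6% of Tap2, 14.3% of H2-D1 and 21.0% of Tapbp also occur in transcripts of other genes. H2-D1 shares 5.31% of its words with H2-K1, and reads from such stretches could have been left uncounted. Reads without a unique alignment were set apart in the counts, at 15.8% to 30.7% of reads per library.

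The promoters are shown because the light chain and both heavy chains are known to be switched on together by interferon and by the NLRC5 complex. Of the 6 genes, 5 matched a RefSeq promoter entry (GRCm38.p6), and Tap2 did not. The B2m stretch of 249 bases, chr2:122147437-122147685 on the plus strand, ends 1 base before the GENCODE start of the gene. Capitals mark an interferon-type element (searched as GAAA, any 2 bases and GAAA), a core of the cyclic AMP response element (TGACG) and a CCAAT box, here read on the opposite strand as ATTGG.
B2m: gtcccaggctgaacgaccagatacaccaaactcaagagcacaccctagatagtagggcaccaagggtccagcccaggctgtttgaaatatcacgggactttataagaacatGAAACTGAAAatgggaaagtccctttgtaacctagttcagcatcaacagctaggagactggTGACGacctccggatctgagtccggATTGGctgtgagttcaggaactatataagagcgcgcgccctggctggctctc
These matches begin 139, 78 and 53 bases before the start that RefSeq gives. Both strands were searched over the 250 bases before each start. In all 27025 promoters of the table, the interferon-type element was found in 3.04%, TGACG in 17.9% and CCAAT in 34.5%, and the last 2 are short and common.

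Both heavy chain genes carry the same pair of TGACG and ATTGG, set apart by the same 20 bases as in B2m. The stretches of 30 bases are chr2:122147609-122147638 (plus strand) for B2m, chr17:34000359-34000388 (minus strand) for H2-K1 and chr17:35262993-35263022 (plus strand) for H2-D1, with the paired letters in capitals.
B2m: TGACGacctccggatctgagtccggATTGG
H2-K1: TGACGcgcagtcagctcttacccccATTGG
H2-D1: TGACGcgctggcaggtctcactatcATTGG
H2-K1 and H2-D1 are identical at 23 of these 30 bases, B2m and H2-K1 at 13, and B2m and H2-D1 at 12. A search for this pair at this spacing, written after the sequences had been read, found it in 25 of the 27025 promoters (0.0925%). Among the 25 are B2m, H2-K1, H2-D1 and the class I gene H2-M3. Tap1 has 1 TGACG and 1 CCAAT at another spacing, and Tapbp 2 CCAAT boxes and no TGACG. Farther upstream, the heavy chain genes share a kappaB-type site (GGGNNTTCC, in 4.88% of promoters) beside an interferon-type core. That core was searched as AANNGAAA after the sequences had been read, and it lies within the longer interferon-type element where both occur, as in B2m. It is in 21.6% of promoters and reads here as TTTCACTT from the opposite strand. The stretches are chr17:34000430-34000458 (minus strand) for H2-K1 and chr17:35262923-35262951 (plus strand) for H2-D1.
H2-K1: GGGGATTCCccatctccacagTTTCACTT
H2-D1: GGGGATTCCccatctcctcagTTTCACTT
They are identical at 28 of 29 bases. The pattern GGGNNTTCC had no match in B2m, but kappaB-type sites of other lengths were not searched in any promoter. Both H2-D1 stretches lie in an annotated exon of a transcript that starts farther upstream. A match is only a run of letters, and no binding was measured in these samples.

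Counts assigned to genes ran from 1882555 in HFD 4 to 7783981 in CD 2. The labelled cell type was checked with 2 marker lists. All 18 late spermatid genes had counts in all 16 libraries. Their summed level was 23793 counts scaled to a common library size (CPM) in HFD 4 and 58064 CPM in HFD 8, against 2378 to 13280 CPM in the other 14. Epididymal epithelial genes, of which 15 of 19 had counts in all libraries, had sums of 18094 CPM in HFD 4 and 12761 CPM in HFD 8. Elsewhere their sums were 45590 to 104836 CPM. In each of those 14 libraries the epididymal sum was above the late spermatid sum, and the share of RNA from sperm was not tested. CD 2 had the highest epididymal and the lowest late spermatid sum. Values that moved when HFD 4, HFD 8 or CD 2 were left out are given with and without them. In bulk RNA, fewer cells of a type and less RNA per cell cannot be told apart.

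B2m was one of the most abundant transcripts of these preparations, ranking 14 of all genes by mean CPM (scaled with trimmed mean of M-values factors). In HFD its level ran from 1422 CPM in HFD 8 through a median of 3892 to 4598 CPM in HFD 3, and in CD from 1825 CPM in CD 6 through a median of 3308 to 11704 CPM in CD 2. HFD 8 and HFD 4, at 1460 CPM, were the lowest of all libraries, CD 2 was the highest by a wide step above CD 1 at 5556 CPM, and the diets overlapped. B2m took between 0.130% (HFD 4) and 1.14% (CD 2) of all gene counts. The means were 3334 CPM ± 1343 (SD, n = 8) in HFD and 4443 CPM ± 3159 (SD, n = 8) in CD. The log2 fold change, HFD against CD, was -0.41 ± 0.38 (SE), with a 95% interval of -1.21 to 0.38 and an edgeR quasi-likelihood adjusted p of 0.721. It was -0.03 without CD 2 and -0.0068 with limma-voom and quality weights. Without all 3 libraries that stood apart it was 0.22, with means of 3965 CPM ± 783 (SD, n = 6) in HFD and 3406 CPM ± 1265 (SD, n = 7) in CD.

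H2-K1, which encodes one classical heavy chain, was the most variable of the 6 genes, with a coefficient of variation of 95.2% over the 16 libraries. Without CD 2 it was 55.5%, below that of Tap2 at 72.0%. In HFD it ran from 91.0 CPM in HFD 5 through a median of 195 to 331 CPM in HFD 7, and in CD from 49.5 CPM in CD 4 through a median of 139 to 1014 CPM in CD 2. CD held both the lowest and the highest library, with CD 3 second at 440.2 CPM, and the diets overlapped. HFD averaged 212 CPM ± 83.8 (SD, n = 8) and CD 271 CPM ± 322.5 (SD, n = 8). The log2 fold change was -0.36 ± 0.50 (SE), with a 95% interval of -1.42 to 0.70 (edgeR adjusted p = 0.819). Without CD 2 the sign turned, to 0.36, and CD averaged 165 CPM ± 128 (SD, n = 7).

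H2-D1 encodes the other classical heavy chain. It ran from 255 CPM in HFD 4 through a median of 438 to 544 CPM in HFD 2, and in CD from 144 CPM in CD 6 through a median of 355 to 1261 CPM in CD 2. Within HFD the libraries lay close together, CD 2 stood alone at the top, and CD 6 and CD 1 (198 CPM) were below every HFD library. HFD averaged 418 CPM ± 99.1 (SD, n = 8) and CD 428 CPM ± 349 (SD, n = 8), with a log2 fold change of -0.03 ± 0.35 (SE), a 95% interval of -0.76 to 0.69 and an edgeR adjusted p of 0.979. The sign turned to 0.44 without CD 2. It was 0.60 without HFD 4, HFD 8 and CD 2, with 464 CPM ± 58.4 (SD, n = 6) in HFD and 309 CPM ± 99.5 (SD, n = 7) in CD. In that subset, chosen after the values were seen, the unadjusted p was 0.00601 and the edgeR adjusted p 0.9999, and the diets overlapped between 377 and 406 CPM.

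**Figure D1:**
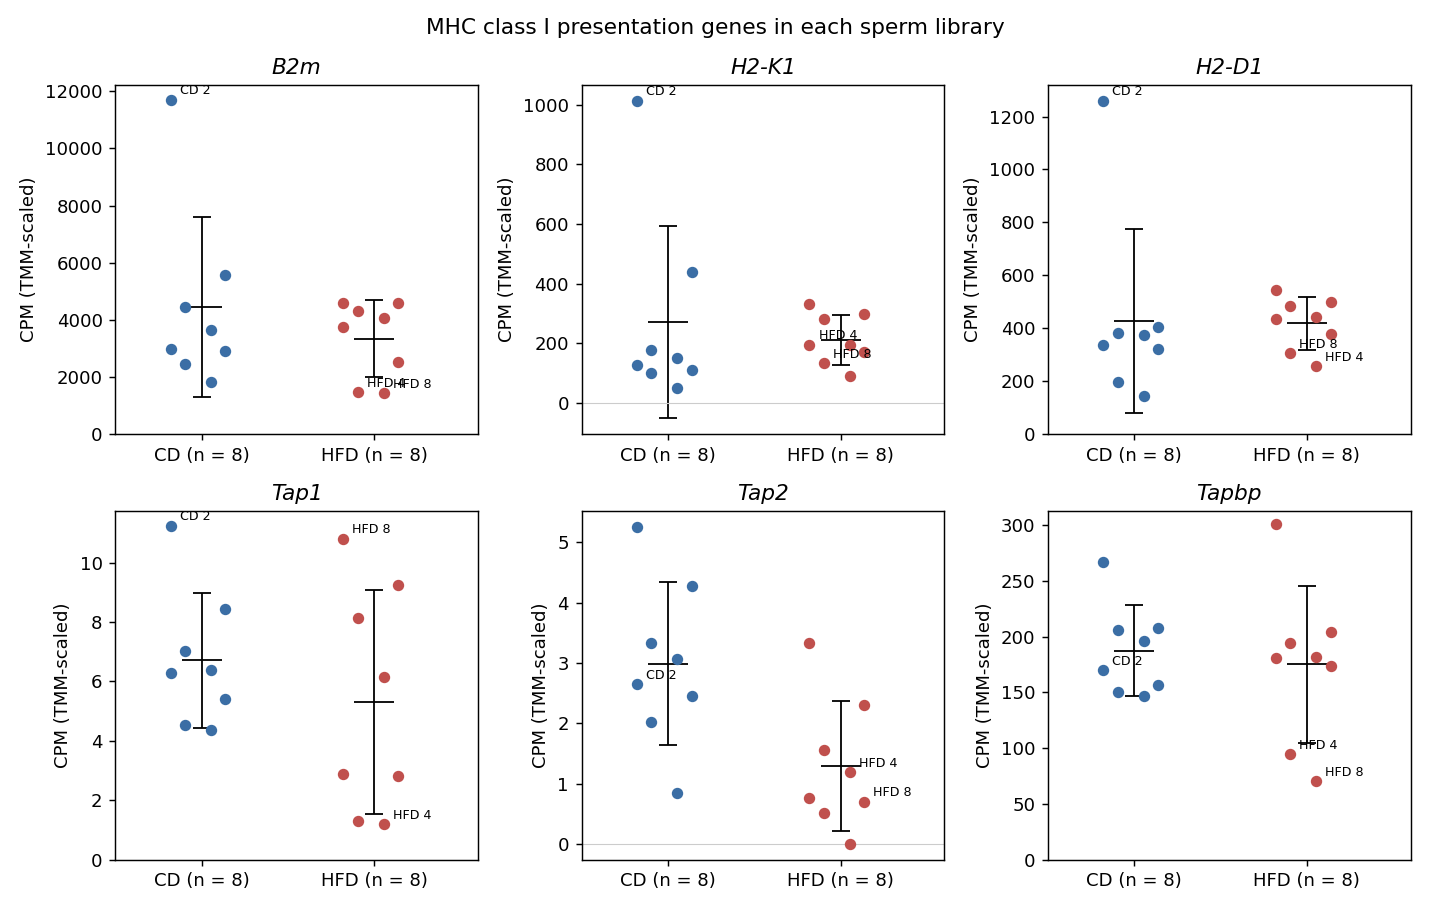
Level of each of the 6 genes in each library, in CPM scaled with trimmed mean of M-values factors, by diet, with a linear axis per gene. Points are libraries, and bars show the mean and the SD of 8 libraries. CD 2 is the highest point for B2m, H2-K1, H2-D1 and Tap1 but not for Tap2 or Tapbp, and HFD 4 and HFD 8 are the lowest for B2m and Tapbp.

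Tap1 and Tap2, the subunits of the peptide transporter, had the fewest counts of the 6 genes, and Tap2 lay nearest the limit of detection. Tap1 had 2 to 31 counts per library in HFD and 16 to 85 in CD. In HFD it ran from 1.19 CPM in HFD 4 through a median of 4.52 to 10.8 CPM in HFD 8, and in CD from 4.37 CPM in CD 1 through a median of 6.32 to 11.2 CPM in CD 2. Counting error is large at this depth, where the 2 counts of HFD 4 allow 0.242 to 7.22 and the 85 counts of CD 2 allow 67.9 to 105 (exact Poisson intervals of 95%). HFD 1, HFD 2, HFD 4 and HFD 6 were below every CD library, while HFD 7 and HFD 8 were above all CD libraries but CD 2. HFD averaged 5.32 CPM ± 3.77 (SD, n = 8) and CD 6.71 CPM ± 2.26 (SD, n = 8). The log2 fold change was -0.34 ± 0.44 (SE), with a 95% interval of -1.27 to 0.58 (edgeR adjusted p = 0.793). Leaving out single libraries moved it between -0.58 (without HFD 8) and -0.18 (without HFD 4), and without HFD 4, HFD 8 and CD 2 it was -0.28. With limma-voom and quality weights it was -0.93, with an unadjusted p of 0.0225 and a limma adjusted p of 0.999.

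Tap2 had 0 to 12 counts per library in HFD and 3 to 20 in CD, too few for the filter. Its 0 counts in HFD 3 lie below a floor of 3 counts, worth 1.03 CPM there and not the Poisson interval given for Tap1. In HFD it ran from 0 in HFD 3 through a median of 0.973 to 3.33 CPM in HFD 7, and in CD from 0.850 CPM in CD 3 through a median of 2.86 to 5.26 CPM in CD 7. CD 3 was the sole CD library under 2 CPM, HFD 1 and HFD 7 the sole HFD libraries above 2 CPM, and the diets overlapped. HFD averaged 1.29 CPM ± 1.08 (SD, n = 8) and CD 2.99 CPM ± 1.36 (SD, n = 8). With no low-count filter the edgeR log2 fold change was -1.20, with an unadjusted p of 0.0706 and an adjusted p of 0.446, and DESeq2 gave -1.20 with an unadjusted p of 0.0313 and an adjusted p of 0.381.

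Tapbp, the tapasin gene, had a coefficient of variation of 30.8%, the lowest of the 6 over all 16 libraries. Without CD 2 it was 31.7%, beside 30.3% for H2-D1. It was 40.2% within HFD, above the 23.7% of H2-D1, and 21.6% within CD, the lowest of the 6 there. In HFD, Tapbp ran from 70.4 CPM in HFD 8 through a median of 181 to 302 CPM in HFD 7. In CD it ran from 146 CPM in CD 1 through a median of 183 to 267 CPM in CD 3. HFD 8 and HFD 4 (94.6 CPM) were below all other libraries, the other HFD libraries lay within or above the CD range, and CD 2 was in the middle at 170 CPM. HFD averaged 175 CPM ± 70.4 (SD, n = 8) and CD 188 CPM ± 40.6 (SD, n = 8). The log2 fold change was -0.10 ± 0.25 (SE), with a 95% interval of -0.61 to 0.42 (edgeR adjusted p = 0.902). Without HFD 4 and HFD 8 the sign turned, to 0.15.

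Of the 5 tested genes, 0 passed the adjusted threshold of 0.05 in the diet comparison with edgeR, and 0 had an unadjusted p under 0.05. Over all 13149 tested genes the shares were 0% and 11.3%. The latter splits into 10.2% with higher and 1.1% with lower HFD levels. The libraries of the diets overlapped for all 6 genes, and over all tested genes 0.00761% did not overlap. DESeq2 also called 0 of the 6 genes and limma-voom 0 of the 5 it tested. Over all genes edgeR called 0, limma-voom 0 and DESeq2 1, the plasma glycoprotein gene Apoh, and 1482 (edgeR), 488 (limma-voom) and 2258 (DESeq2) genes had an unadjusted p under 0.05. All 5 log2 fold changes were negative with all libraries, with a median of -0.34, beside 50.4% negative and a median of -0.0042 over all tested genes. Without HFD 4 and HFD 8, 2 of the 5 were positive and the median was -0.14. Without these and CD 2 the median turned to 0.22. The intervals leave room for a difference of over 2-fold for B2m, H2-K1 and Tap1 in the direction of lower HFD levels.

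**Figure D2:**
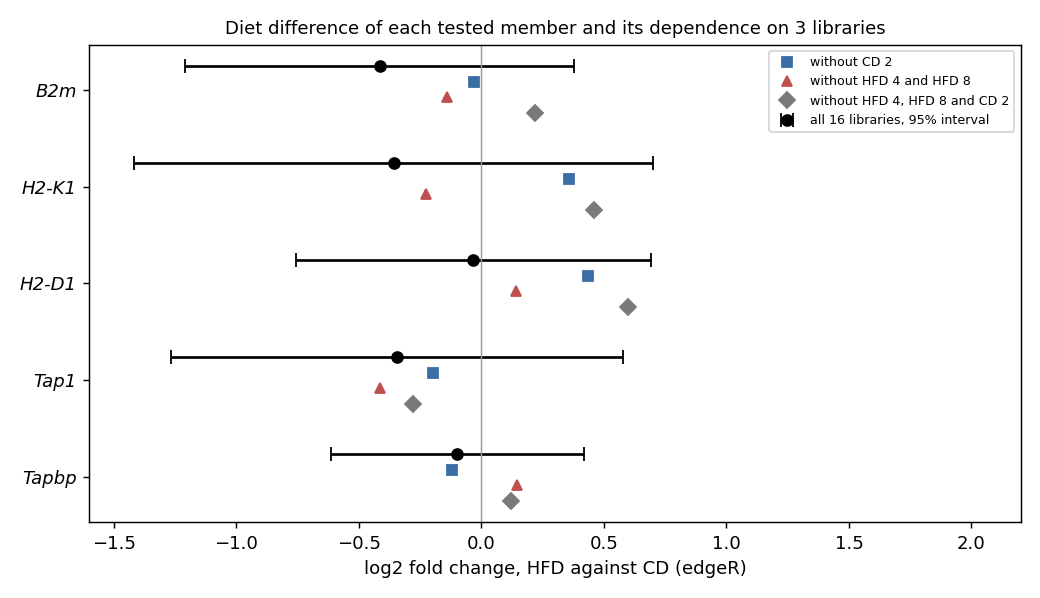
Log2 fold change of each tested gene, HFD against CD, from edgeR. Black points with bars are all 16 libraries with the 95% interval, and squares, triangles and diamonds are the values without CD 2, without HFD 4 and HFD 8, and without all 3. All intervals hold 0, and the values of H2-K1 and H2-D1 cross 0 when CD 2 is left out.

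Per kilobase of exon, the light chain was far more abundant than its partners. The median over 16 libraries was 4285 CPM per kilobase for B2m, 147 for H2-D1, 58.8 for H2-K1, 50.02 for Tapbp, 1.13 for Tap1 and 0.573 for Tap2. The library ranges of neighbours in this order overlap, except that the lowest B2m value, 1653, is above the highest of H2-D1, 489, and the lowest Tapbp value, 19.4, is above the highest of Tap1, 2.05. The ratio of B2m to the sum of H2-K1 and H2-D1, per kilobase, ran from 10.09 in HFD 8 and 10.3 in HFD 4 to 22.7 in CD 6, with CD 1 alone at 58.2. CD 1 had a B2m level below that of CD 2 only and one of the lowest H2-K1 levels. The heavy chains were uneven with each other. Per kilobase, H2-K1 divided by H2-D1 was lowest in CD 4 at 0.114 and highest in CD 3 at 1.15. Within HFD it was lowest in HFD 5 at 0.184 and highest in HFD 4 at 0.671. CD 3 was the sole library with more H2-K1 than H2-D1.

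Over the 14 libraries other than HFD 4 and HFD 8, B2m and the heavy chains gave positive correlations that did not pass and were weaker without CD 2. For log2 CPM, B2m and H2-D1 gave r = 0.69 (permutation p = 0.0125) and rho = 0.49 (permutation p = 0.0805). B2m and H2-K1 gave r = 0.66 (permutation p = 0.0126) and rho = 0.44 (permutation p = 0.119), and H2-K1 and H2-D1 r = 0.64 (permutation p = 0.0170) and rho = 0.47 (permutation p = 0.0936). Adjusted over the 15 pairs of the 6 genes, the p of each r was 0.0851 and that of each rho 0.447. Without CD 2 alone, r was 0.39 for B2m and H2-D1, 0.37 for B2m and H2-K1 and 0.35 for the heavy chains. Without the 2 libraries farthest from the median of the first gene (CD 2 and CD 6 for B2m, CD 2 and CD 4 for H2-K1), r was -0.12 for B2m and H2-D1, 0.33 for B2m and H2-K1 and 0.48 for the heavy chains. In the order just given, the 3 values were 0.85, 0.25 and 0.36 in the 6 HFD libraries, 0.71, 0.73 and 0.67 in the 8 CD libraries, and 0.17, 0.31 and 0.13 in the 7 CD libraries other than CD 2. Tapbp gave r = 0.06 with B2m, and Tap1 gave r = 0.29 with B2m. Of the 15 pairs, 0 passed.

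**Figure D3:**
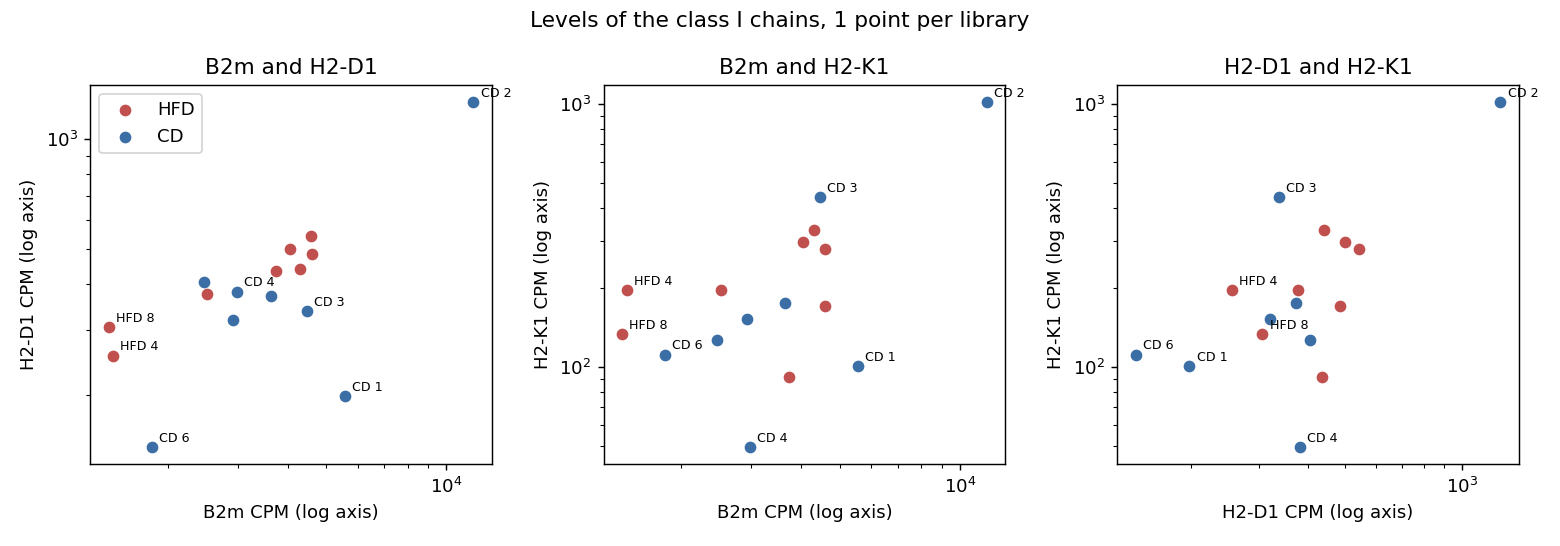
Levels of B2m, H2-D1 and H2-K1 against each other in CPM on log axes, 1 point per library, coloured by diet. CD 2 is at the top right in each panel at 11704 CPM of B2m, HFD 4 and HFD 8 are at the left of both panels with B2m, and CD 1 has high B2m beside low heavy chains.

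CD 2 stood apart for part of the pathway only. Against the median of the other 15 libraries it held 3.22-fold more B2m, 5.95-fold more H2-K1, 3.34-fold more H2-D1 and 1.83-fold more Tap1, but 0.933-fold the Tapbp level. Of the 5 tested genes, 4 were highest in CD 2, Tap1 by a small margin over HFD 8, and so were 11.9% of all tested genes. Among the immunoproteasome and its activator, which cut proteins into peptides suited to class I molecules, 4 of 5 were highest there: Psmb8 at 19.7 CPM, Psmb9 at 28.2, Psme1 at 141 and Psme2 at 127. Psmb10 ranked 6 of 16. Erap1, which trims peptides to length, was highest in CD 2 at 69.7 CPM, and the nonclassical heavy chain gene H2-T23 at 24.2 CPM, 6.34-fold the median of the others. Their lists were mixed: 4 of 8 tested loading and editing partners and 1 of 6 tested other class I chains were highest there. So were 2 of 18 tested class I regulators and 3 of 19 tested interferon-stimulated genes. H2-T10, another class I chain, was at only 0.794 CPM in CD 2. Leukocyte markers were not high in this library. It had the lowest levels of Lyz2 (119 CPM), Ptprc (11.9 CPM) and Csf1r (10.8 CPM), and 8 of 16 tested leukocyte markers were lowest there, against 5.62% of all tested genes. Of 22 leukocyte markers in the table, Cd8a alone was at 0 in CD 2. The leukocyte sum was 1691 to 5439 CPM in HFD and 2049 to 4510 CPM in CD. Cd52, which is also an epididymal secretory protein, made up 66.4% to 89.9% of it, except in HFD 4 (36.5%) and HFD 8 (32.3%). Without Cd52, a choice made after the values were seen, CD 2 was the lowest at 207 CPM, against 320 to 1309 CPM in HFD and up to 900 CPM in CD. Epididymal markers were mostly high in CD 2: of 16 tested, 12 ranked above the median of the libraries and 4 below. Among them 7 were highest there, Lcn5 and Clu included, against 11.9% of all tested genes. Gpx3 (2627 CPM) and Wfdc13 (4351 CPM) ranked 14 of 16. The epididymal sum was 104836 CPM. The part of these cells in the CD 2 levels of B2m and the heavy chains was not tested beyond these values.

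HFD 4 and HFD 8 were low in B2m, at 0.375 and 0.365 of the median of the other 14 libraries, and in Tapbp, at 0.503 and 0.374. They were nearer to the others in H2-D1, at 0.647 and 0.775, and in H2-K1, at 1.13 and 0.768. Tap1 differed between the 2 libraries, at 0.192 in HFD 4, on 2 counts, and 1.74 in HFD 8. Of the 5 tested, B2m, Tap1 and Tapbp were lowest in one of these libraries, against 46.5% of all tested genes. These are the libraries with high late spermatid and low epididymal sums, and the part of that makeup in the diet values was not tested.

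Across the same 14 libraries B2m correlated with the summed epididymal markers, with r = 0.77 (permutation p = 0.00136, adjusted 0.0272 over 20 relations computed after the values were seen). By rank the relation did not pass, with rho = 0.49 (permutation p = 0.0770, adjusted 0.233). It did not hold without CD 2 and CD 6, the libraries farthest from the median, where r was 0.48 (permutation p = 0.110), and r was 0.69 without CD 2 alone. Within diets r was 0.21 in the 6 HFD libraries, 0.85 in the 8 CD libraries and 0.75 in the 7 CD libraries other than CD 2. B2m went against the leukocyte sum without Cd52, with r = -0.70 (permutation p = 0.00600, adjusted 0.0400) and rho = -0.60 (permutation p = 0.0270, adjusted 0.228). Without CD 2 and CD 6 that r was -0.48 (permutation p = 0.115), and without CD 2 alone -0.44. Within HFD it was -0.52, within CD -0.84, and within CD without CD 2 -0.55. H2-D1 and the epididymal sum gave r = 0.73 (adjusted permutation p = 0.0393) and rho = 0.58 (adjusted permutation p = 0.228). That r was 0.30 (permutation p = 0.327) without CD 2 and CD 6 and 0.63 without CD 2 alone. It was 0.19 within HFD, 0.73 within CD and 0.48 within CD without CD 2.

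The genes whose levels were most like that of B2m, by Pearson's r of log2 CPM over the 14 libraries and among 10171 genes with a mean of at least 10 CPM, were not class I genes. They included Hmgn1 (r = 0.91), a nucleosome-binding protein, Cpne3 (0.88), Arf4 (0.88), a small GTPase of vesicle traffic, Naa50 (0.87), Ptbp3 (0.87), Brwd3 (0.87), Rala (0.87), Etf1 (0.86), a translation release factor, and Prdx1 (0.85), a peroxidase. Hmgn1 averaged 309 CPM ± 119 (SD, n = 8) in HFD and 387 CPM ± 89.9 (SD, n = 8) in CD. H2-D1 ranked 331, H2-K1 455 and Tapbp 5050 by this measure. The order depended on the libraries: 0 of the 10 were among the top 10 without CD 2. All points share a library's depth and RNA makeup.

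Other genes of the pathway were described from lists, each beside the same values for all tested genes, of which 49.6% had a positive log2 fold change. In every list 0 genes passed with edgeR. The medians are given with all libraries, without HFD 4 and HFD 8, and without HFD 4, HFD 8 and CD 2, in that order. All 8 loading and editing partners were tested, with 0 positive and 8 negative values and medians of -0.20, 0.0064 and 0.11. Among them are the chaperones Hspa5, at 1021 CPM ± 396 in HFD and 1227 CPM ± 355 in CD, Canx, at 1053 ± 430 and 1187 ± 269, and Calr, at 795 ± 375 and 979 ± 154 (SD, n = 8). These chaperones fold many secreted proteins besides class I chains.

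The immunoproteasome list had 1 positive and 4 negative values of 5 and medians of -0.09, -0.18 and 0.10. Psme1, a subunit of the proteasome activator, averaged 61.3 CPM ± 17.5 in HFD and 78.7 CPM ± 28.7 in CD, Psme2, its partner, 76.6 ± 25.9 and 81.6 ± 23.5, and the catalytic subunit Psmb9 9.05 ± 5.97 and 12.6 ± 7.83 (SD, n = 8). Among their constitutive counterparts, Psmb7 averaged 86.7 CPM ± 26.4 and 91.5 ± 28.1, Psmb6 55.5 ± 26.6 and 51.3 ± 12.1, and Psmb5 15.7 ± 3.83 and 13.7 ± 4.21. Of these 3, 2 were positive, with medians of 0.11, -0.07 and -0.09.

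Other class I and class I-like chains were scarce. Of 28 genes, 6 passed the filter and 7 were listed at 0 in all libraries, H2-Q5, H2-Q6, H2-Q7, H2-T9, H2-T22, H2-M10.1 and H2-M11. Near-identical copies make the counts of this family uncertain. The tested genes had 3 positive and 3 negative values, with medians of 0.05, 0.15 and 0.25. H2-T24 averaged 7.20 CPM ± 9.03 in HFD and 18.8 CPM ± 22.05 in CD, H2-T10 14.4 ± 9.58 and 11.1 ± 8.40, and Mr1, which presents vitamin metabolites, 11.9 ± 7.25 and 12.8 ± 5.66 (SD, n = 8). H2-T24 averaged 4.58 CPM ± 5.56 (SD, n = 7) over the HFD libraries other than HFD 5. Over the CD libraries other than CD 4 it averaged 14.2 CPM ± 19.2 (SD, n = 7). Its highest CD libraries were CD 4 at 51.0 CPM, CD 8 at 50.7 CPM and CD 2 at 31.5 CPM. Fcgrt, which encodes the neonatal Fc receptor and also pairs with beta-2 microglobulin, had 5.46 CPM ± 3.92 and 2.23 ± 1.90, with an edgeR unadjusted p of 0.0492 and an adjusted p of 0.443.

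Genes that switch class I genes on did not pass. Of 19, 18 were tested, 5 positive and 13 negative, with medians of -0.11, 0.06 and 0.13. Nlrc5, the class I transactivator, missed the filter. HFD libraries averaged 2.91 CPM ± 4.14 (SD, n = 8) and CD libraries 2.21 CPM ± 1.72 (SD, n = 8). HFD libraries other than HFD 4 averaged 1.71 CPM ± 2.56 (SD, n = 7), and CD libraries other than CD 6 averaged 1.79 CPM ± 1.34 (SD, n = 7). The kinases Jak1, at 145 CPM ± 23.02 and 154 ± 17.1, and Jak2, at 126 ± 38.5 and 150 ± 29.8, and the factor Stat3, at 61.2 ± 22.4 and 72.0 ± 21.6, had the highest mean CPM. Nfya, a subunit of the complex that binds CCAAT boxes, averaged 18.98 ± 3.73 and 25.4 ± 6.07 (edgeR adjusted p = 0.470). Interferon-stimulated genes had 6 positive and 13 negative values of 19 tested and medians of -0.32, -0.16 and -0.13. Irf9 averaged 62.8 CPM ± 53.5 and 91.3 ± 94.0. CD 4 alone held 323 CPM of it, and the other CD libraries averaged 58.3 CPM ± 10.2 (SD, n = 7). HFD 2 held 187 CPM of Irf9, and the other HFD libraries averaged 45.1 CPM ± 20.3 (SD, n = 7). Stat2 averaged 38.0 CPM ± 12.6 and 51.9 ± 23.5, Ifitm3 44.6 ± 19.5 and 39.0 ± 14.9, and Ifi35 9.14 ± 4.45 and 14.7 ± 4.40 (SD, n = 8).

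Class II genes, which present peptides on leukocytes, had 5 positive and 1 negative value of 6 tested and medians of 0.25, -0.07 and -0.16. H2-Aa averaged 95.9 CPM ± 43.6 in HFD and 66.1 ± 29.0 in CD, Cd74 86.3 ± 57.1 and 60.4 ± 29.9, and H2-Ab1 55.9 ± 45.7 and 48.4 ± 26.2 (SD, n = 8). HFD libraries other than HFD 8 averaged 71.2 CPM ± 41.0 of Cd74 and 41.8 CPM ± 24.1 of H2-Ab1 (SD, n = 7). Without HFD 4 and HFD 8 the log2 fold change of H2-Ab1 turned from 0.20 to -0.37, with H2-Aa at 0.23 and Cd74 at 0.21. Unlike B2m and the heavy chains, these 3 were not high in CD 2, where they ranked 14, 13 and 13 of 16. Leukocyte markers had 15 positive values of 16 tested (medians 0.51, 0.25 and 0.12), epididymal markers 4 of 16 (medians -0.19, 0.12 and 0.33), late spermatid markers 18 of 18 (medians 1.32, -0.12 and -0.25) and meiotic markers 10 of 10 (medians 1.002, -0.08 and -0.20). Stromal markers had 11 positive values of 13 (medians 0.16, -0.16 and -0.29), and clear cell markers 2 of 5 (medians -0.09, -0.02 and 0.12). The part of these cell types in the class I values was not tested.

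**Figure D4:**
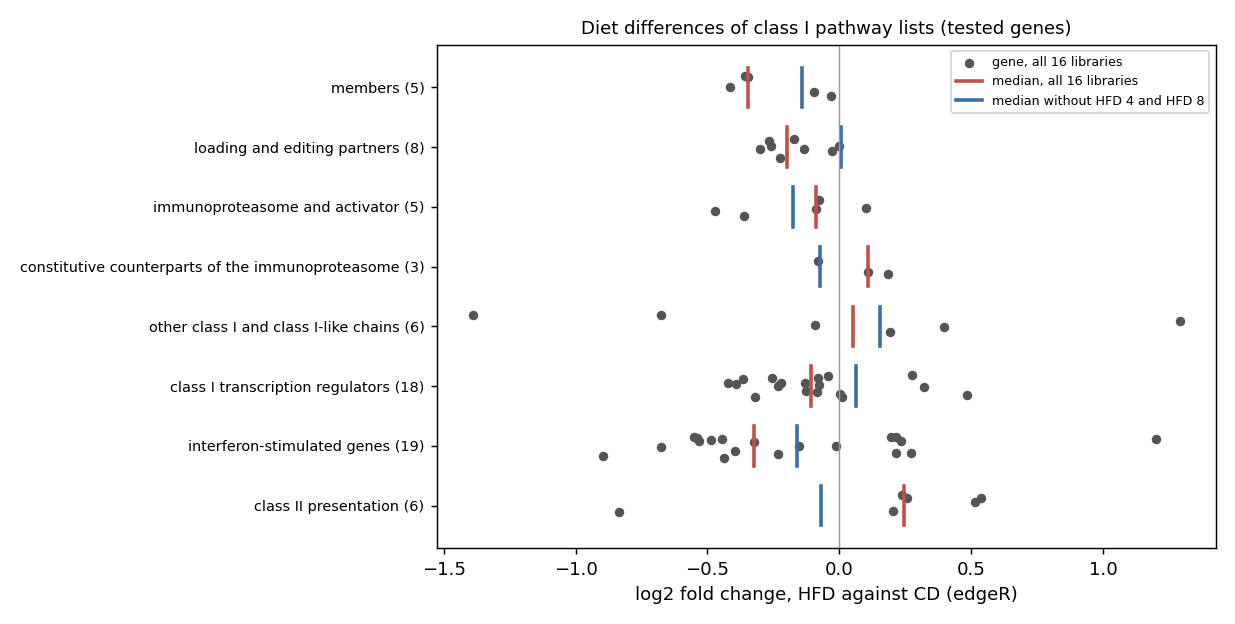
Log2 fold change, HFD against CD, of each tested gene of the class I lists from edgeR, with the list's median over all 16 libraries in red and without HFD 4 and HFD 8 in blue. No gene passed, and the median of the 5 tested genes from the 6 that were followed moved from -0.34 to -0.14 when these libraries were left out.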

How the data were processed

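The authors deposited raw read counts, 1 value per gene symbol and library, for 16 mouse sperm libraries, 8 HFD and 8 CD. Per the submitters' processing notes, the mm10 build and the tools STAR, HTSeq 1.0.0 and DESeq2 1.0.19 were used. For the annotation and strand setting, nothing is given in the sources used here. Per the labels' protocols, cDNA was amplified from 2 ng of RNA and libraries were made from 250 ng of cDNA, and no molecular identifier is named, so intervals cover counting error only. Library sizes and tests leave out the 5 summary rows, and 8.02% to 20.1% of reads were assigned to genes. The series describes 8 mice per diet, and no batch is named. Library pairs of one diet differed by 12.7 to 172 chi-square units per degree of freedom (56 pairs), so none was treated as a copy.

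The comparison of the diets used edgeR 4.0.16 with R 4.3.3 (quasi-likelihood F-test, robust, trimmed mean of M-values factors, default filter by diet, two-sided, Benjamini-Hochberg over 13149 genes, threshold 0.05). CPM were computed from the deposited counts with these factors, and levels per kilobase use merged GENCODE M21 exons. Intervals of fold changes were formed from the fold change and its standard error. The step was tested on simulated data: of 50 genes at each size, it recovered 8 at 2-fold, 38 at 4-fold, 47 at 8-fold and 50 at 16-fold. It made 4 false calls. Those counts were drawn gene by gene around a common mean, with no libraries that stood apart as HFD 4, HFD 8 and CD 2 did. The figures need not hold for the real libraries. Correlations use log2 CPM with a prior count of 2 and 100000 permutations.

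The genes and lists were chosen with earlier results of these data known. Named genes are the 6 members, and in each class I list the 3 tested genes with the highest mean CPM and the gene with the smallest p, plus the 10 genes most like B2m, of which 1 is not reported here. Nlrc5 and the genes and markers named for CD 2 were chosen after their values were seen. Alternatives were DESeq2 1.42.0, limma-voom (limma 3.58.1), scaling, filters, Rn45s left out, replicate numbers as a block, and libraries left out. Later additions, made with the values in view, were the comparisons without HFD 4, HFD 8 and CD 2, the relations with marker sums, values of single genes without 1 library, and 2 motif searches.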

Additional observations from a re-analysis of the deposited data

Results flagged for a closer look

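In groups of 8 libraries, 46 sets of values (member levels, their ratios and list sums) were checked for 1 library far from the rest, and 4 had one. Chance gives about 1 in 20. The immunoproteasome and activator list summed to 323 CPM in CD 2, with CD 4 next at 202 CPM among CD libraries. The constitutive counterparts of the immunoproteasome summed to 263 CPM in HFD 4, with HFD 8 next at 171 CPM among HFD libraries. Other class I and class I-like chains summed to 26.8 CPM in HFD 4, the lowest of the HFD libraries, with HFD 2 next at 55.7 CPM. The ratio of B2m to the heavy chains per kilobase was 58.2 in CD 1, with CD 6 next at 22.7 among CD libraries.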

How the results depend on the processing

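Under 25 alternatives, 0 of the 5 tested class I genes passed the threshold, with adjusted p from 0.611 (B2m), 0.6997 (H2-K1), 0.612 (H2-D1), 0.644 (Tap1) and 0.651 (Tapbp) to 0.9999. The count of genes over the whole table was 1 with DESeq2 and 0 under the others. Signs depended on the libraries and the test, and the cause was not tested. With limma-voom and quality weights the log2 fold changes were 0.40 for H2-K1, 0.45 for H2-D1, 0.028 for Tapbp, -0.0068 for B2m and -0.93 for Tap1 (unadjusted p = 0.0225). Without HFD 4 and HFD 8 they were 0.14 for H2-D1 and 0.15 for Tapbp, and without these and CD 2, 0.22 for B2m, 0.46 for H2-K1, 0.60 for H2-D1, 0.12 for Tapbp and -0.28 for Tap1. Leaving out each library in turn gave -0.53 to -0.03 for B2m, -0.48 to 0.36 for H2-K1, -0.16 to 0.44 for H2-D1, -0.58 to -0.18 for Tap1 and -0.26 to 0.021 for Tapbp. Without HFD 4, H2-D1 was at 0.07 and Tapbp at 0.0058, and without HFD 8 at 0.022 and 0.021. Tap2 was tested only with no filter and with DESeq2, with the same sign. Genes at an unadjusted p under 0.05 numbered 516 without HFD 4, 689 without HFD 8, 292 without both (132 higher and 160 lower in HFD), 430 without these and CD 2, 314 with the block and 2518 with no filter, against 1482 (1338 higher and 144 lower). Of the 10 genes most like B2m, 2 were among the top 10 with all 16 libraries, 2 by Spearman's rho and 0 without CD 2.

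Same-numbered libraries of the diets correlated by -0.40 to 0.61 in their deviations, above 0.1 in 4 of 8 pairs. Of the HFD libraries, 2 correlated best with their own number. Such correlations cannot tell whether the numbers pair the mice, and the main fit used diet only. With the replicate number as a block the log2 fold changes were -0.31 for B2m, 0.19 for H2-K1, 0.22 for H2-D1, -0.59 for Tap1 and -0.18 for Tapbp, and 0 passed. Depth limits Tap1 and Tap2 most.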
